A study of Drosophila melanogaster with 6 samples.

Results

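The regions described here are the narrow peaks of hrp36 and hrp48 on the chromosome arms of Drosophila melanogaster S2 cells, as listed from chromatin immunoprecipitation followed by sequencing (ChIP-seq). They were chosen by width and by sequence name, as peaks under 4000 bp on 2L, 2R, 3L, 3R, 4 or X. The hrp36 list held 176 such peaks out of 1020, and the hrp48 list held 55 out of 938, which makes 231 of 1958 listed peaks in all. The series has 2 hrp36 immunoprecipitates, 2 hrp48 immunoprecipitates and 2 inputs of 10% of the chromatin, all from S2 cells fixed in 1.8% formaldehyde for 10 minutes. The labels give S2 as the cell line and describe it as a late-stage primary culture, which is how this line was first derived from embryos. By their titles the samples come from ChIP rounds 1 and 2, each with both antibodies and its own input, and the lists do not separate the rounds. The labels name no genotype, treatment or time that differs between the immunoprecipitates.

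Both proteins belong to the heterogeneous nuclear ribonucleoproteins (hnRNPs), a family that coats nascent transcripts and takes part in splicing, export, localisation and translation of mRNA. The RefSeq gene table pairs hrp36 with the symbol Hrb87F and hrp48 with Hrb27C. Hrb87F is known as a component of the nuclear omega speckles, where hnRNPs gather on a long non-coding RNA. Hrb27C is known as a splicing regulator of P-element transcripts and as a factor in the localisation of oskar mRNA. Such proteins are reached by ChIP mainly where formaldehyde fixes RNA and its bound proteins to chromatin, so a peak marks crosslinked DNA and not necessarily direct binding to it.

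Each antibody is represented by 1 list of start and end positions on the dm3 build, with no score, no read count and no value per replicate. A peak is therefore either listed or not, sequencing depth is unknown, and no difference between the lists can be set against replicate error. No test was made for that reason. Shares carry exact (Clopper-Pearson) 95% intervals and medians carry exact order-statistic 95% intervals, which cover the number of peaks alone, and neighbouring peaks are not independent. Depth, antibody efficiency, background and calling threshold may differ between the lists and cannot be told apart from a difference in occupancy. No gene models of dm3 were used here, so peaks are named by position and no gene is assigned to them. Positions are counted from 1.

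Narrow peaks were common on the arms for hrp36 and less so for hrp48. They were 176 of 346 hrp36 arm peaks (50.9%, 95% interval 45.5 to 56.3%) and 55 of 218 hrp48 arm peaks (25.2%, 19.6 to 31.5%). The 2 lists held similar numbers of wider arm peaks, 170 for hrp36 and 163 for hrp48. In base pairs, narrow peaks made up 333 of 1503 kb of hrp36 coverage on the arms (22.2%) and 143 of 1249.6 kb of hrp48 coverage (11.4%). Outside the arms narrow peaks were the rule on unplaced sequence (U and Uextra), with 595 of 608 hrp36 and 629 of 643 hrp48 peaks. On the mapped heterochromatic sequences, whose names end in Het, they were 28 of 66 for hrp36 and 37 of 77 for hrp48.

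The widths of narrow peaks, which the choice of members used and which are therefore only described, were spread differently in the 2 lists. Narrow hrp36 peaks ranged from 1087 to 3954 bp with a median of 1578 bp (95% interval 1423 to 1833 bp) and quartiles of 1251 and 2299 bp. Narrow hrp48 peaks ranged from 1053 to 3982 bp with a median of 2464 bp (2204 to 3046 bp) and quartiles of 1980 and 3330 bp. The hrp36 peaks thus crowded at the low end, where 79 of 176 were under 1500 bp (44.9%, 37.4 to 52.6%), against 5 of 55 hrp48 peaks (9.09%, 3.02 to 20.0%). Between 2500 and 4000 bp the counts were nearer each other, with 35 hrp36 and 27 hrp48 peaks. Around the limit of 4000 bp the widths ran on without a gap. The 3 widest narrow hrp36 peaks measured 3862, 3895 and 3954 bp and the 3 narrowest of the wider class 4113, 4182 and 4205 bp. For hrp48 these were 3950, 3967 and 3982 bp inside the limit and 4026, 4199 and 4223 bp outside it.

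**Figure D1:**
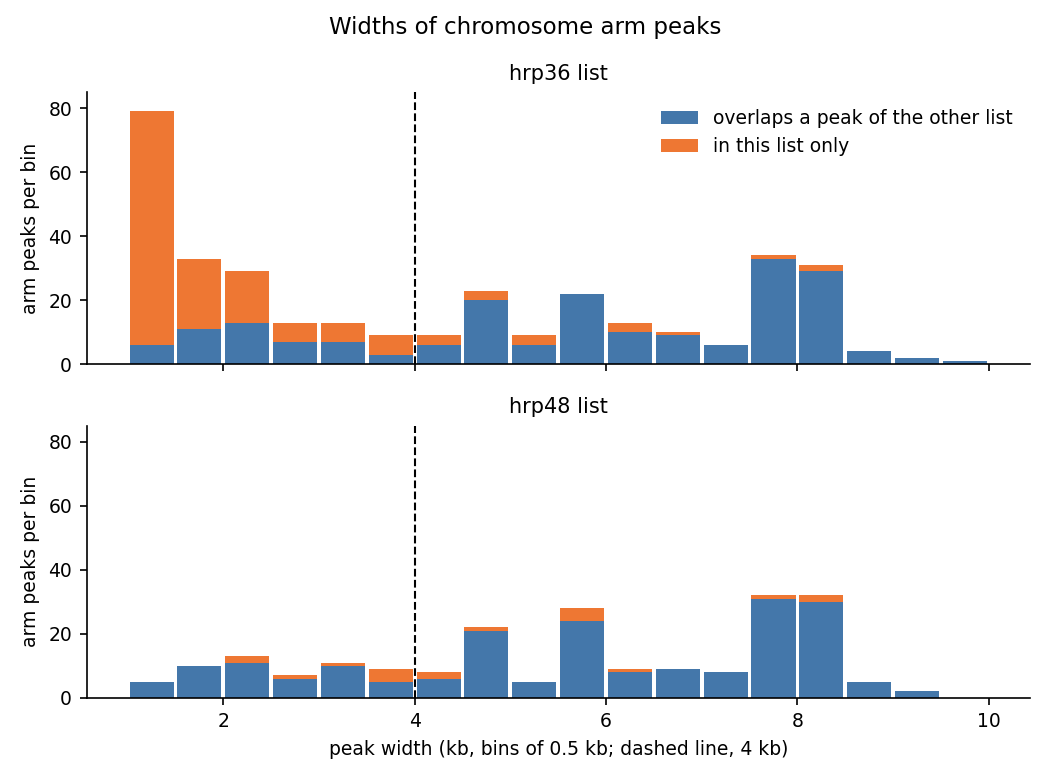
Number of arm peaks (vertical axis) by peak width in bins of 0.5 kb (horizontal axis), for hrp36 above and hrp48 below, split by colour into peaks that overlap a peak of the other list and peaks in 1 list only; peaks of 10 kb or more are not drawn. The bin from 1 to 1.5 kb holds 79 hrp36 peaks, 73 of them in the hrp36 list only, and 5 hrp48 peaks, all of them shared.

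Few narrow hrp36 peaks had an hrp48 counterpart, while most narrow hrp48 peaks had an hrp36 one. Sharing was counted from an overlap of 1 bp with a peak of any width in the other list. By this measure 47 of 176 narrow hrp36 peaks were shared (26.7%, 20.3 to 33.9%), against 57.2% of all hrp36 arm peaks. Of the narrow hrp48 peaks, 47 of 55 were shared (85.5%, 73.3 to 93.5%), against 90.8% of all hrp48 arm peaks. Overlap counts the same sites from either list, and 45 of the 47 shared narrow hrp36 peaks had a narrow hrp48 partner. With 176 narrow hrp36 peaks against 55 narrow hrp48 peaks, such matching keeps the hrp36 share low. The contrast between 26.7% and 85.5% therefore largely restates the numbers of narrow peaks in each list. Among the wider peaks the shared part was 151 of 170 for hrp36 (88.8%, 83.1 to 93.1%) and 151 of 163 for hrp48 (92.6%, 87.5 to 96.1%). The interval for narrow hrp36 peaks thus lay below that for wider hrp36 peaks, whereas the intervals of narrow and wider hrp48 peaks overlapped. The difference within hrp36 also depends on peak numbers, which were 176 against 55 for narrow peaks but 170 against 163 for wider ones. A difference beyond these numbers was not tested. A total of 129 narrow peaks were in the hrp36 list only and 8 in the hrp48 list only, covering 223 kb and 25.7 kb.

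The low shared part of narrow hrp36 peaks was not seen for narrow peaks outside the arms. There, 24 of 28 narrow hrp36 peaks on Het sequences (85.7%, 67.3 to 96.0%) and 566 of 595 on unplaced sequence (95.1%, 93.1 to 96.7%) overlapped an hrp48 peak. For hrp48 the shared part outside the arms was 26 of 37 on Het sequences (70.3%, 53.0 to 84.1%) and 565 of 629 on unplaced sequence (89.8%, 87.2 to 92.1%). For hrp48 the interval on the arms overlapped those of both other classes, and for hrp36 it lay below both. These classes are not alike in peak numbers. Outside the arms hrp36 had fewer narrow peaks than hrp48, with 28 against 37 and 595 against 629. On the arms it had 176 against 55, so narrow hrp48 partners were scarce there. Peak density and sequence length, which also affect overlap, were not compared. Whether the arms differ beyond this was not tested.

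Within the narrow class the shared part of hrp36 peaks was higher at larger widths. It was 6 of 79 from 1000 to under 1500 bp (7.59%, 2.84 to 15.8%), 24 of 62 from 1500 to under 2500 bp (38.7%, 26.6 to 51.9%) and 17 of 35 from 2500 to under 4000 bp (48.6%, 31.4 to 66.0%). Wider hrp36 peaks from 4000 to under 6000 bp stood at 54 of 63 (85.7%, 74.6 to 93.3%). The hrp48 shares for the 3 narrow classes were 5 of 5, 21 of 23 (91.3%, 72.0 to 98.9%) and 21 of 27 (77.8%, 57.7 to 91.4%), with no such rise. A wider peak covers more sequence and so meets a peak of the other list more readily, and the part of this in the hrp36 values was not tested. Partners mostly had similar widths, so the hrp36 shares also depend on the numbers of hrp48 peaks. These were 5, 23 and 27 in the narrow classes, against 79, 62 and 35 for hrp36.

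**Figure D2:**
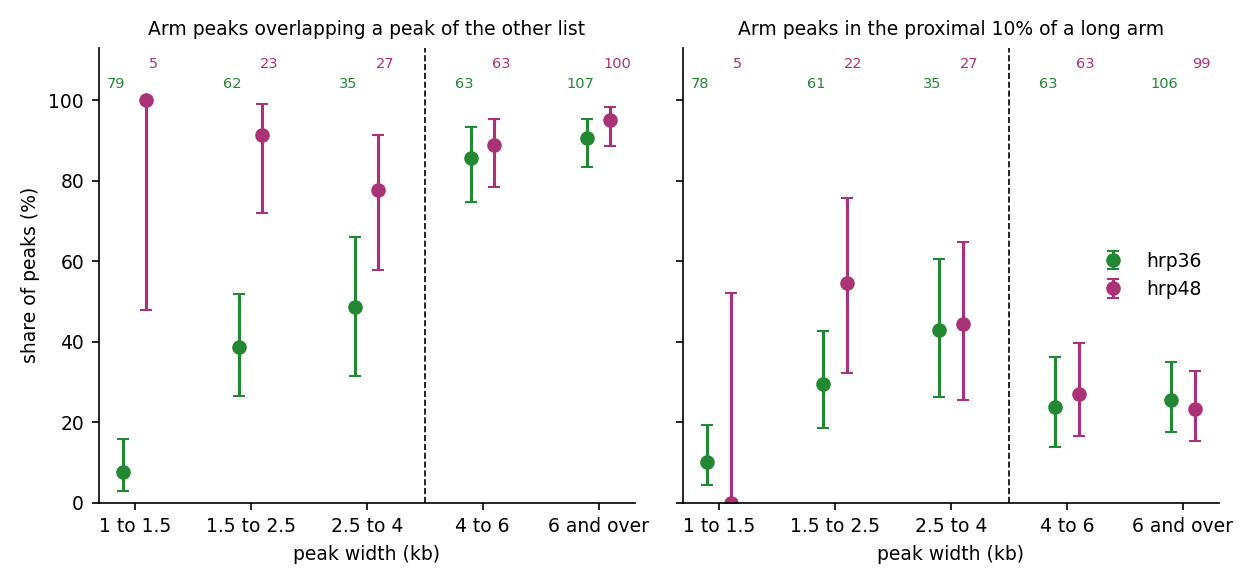
Share of arm peaks (vertical axis, %) that overlap a peak of the other list (left) or lie in the centromere-proximal 10% of a long arm (right), by peak width class in kb (horizontal axis), for hrp36 in green and hrp48 in purple; points are shares, bars are exact 95% intervals, coloured numbers above are peaks per class and the dashed line marks 4 kb. On the left the hrp36 share is 7.59% in the narrowest class and 85.7% from 4 to 6 kb, while the hrp48 share is at 77.8% or above in every class.

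The surplus of narrow hrp36 peaks was uneven between arms. On 3R there were 42 narrow hrp36 and 6 narrow hrp48 peaks, a ratio of 7. The ratio was 6.17 on 3L (37 and 6 peaks), 3 on 2L (36 and 12), 2.11 on 2R (40 and 19) and 1.73 on X (19 and 11). Scaled to the extent of each arm, taken from base 1 to the last peak end, narrow hrp36 peaks had similar densities on the autosomal arms, from 1.52 per Mb on 3L to 1.89 per Mb on 2R, and 0.849 per Mb on X. Narrow hrp48 peaks ranged from 0.220 per Mb on 3R and 0.246 on 3L to 0.899 on 2R. The arms with the highest ratios were thus those where narrow hrp48 peaks were sparse.

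The arms stood in the same order by the shared part of narrow hrp36 peaks, a measure linked to the ratio since most narrow hrp48 peaks were shared. Only 4 of 42 were shared on 3R (9.52%, 2.66 to 22.6%), 7 of 37 on 3L (18.9%, 7.96 to 35.2%) and 8 of 36 on 2L (22.2%, 10.1 to 39.2%). On 2R it was 17 of 40 (42.5%, 27.0 to 59.1%) and on X 10 of 19 (52.6%, 28.9 to 75.6%). The interval of 3R overlapped neither that of 2R nor that of X, while neighbours in this order were not separated by theirs. These arms were picked after ranking, and 3R, 2R and X held 6, 19 and 11 narrow hrp48 peaks. Median widths of narrow hrp36 peaks were 1307 bp on 3R, 1522 bp on 3L, 1657 bp on 2R, 1905 bp on X and 2198 bp on 2L. The arm with the smallest shared part, 3R, thus also had the lowest median width. The orders by width and by shared part were not the same, since 2L had the highest median width and 22.2% shared.

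Chromosome 4, a small and largely heterochromatic chromosome, carried 3 narrow peaks in the 2 lists. One site was narrow in both, with hrp36 from 860349 to 862603 (2255 bp) and hrp48 from 860344 to 862571 (2228 bp). The other hrp36 peak, at 1287178 to 1288380 (1203 bp), had no hrp48 counterpart, and the nearest hrp48 peak lay 425 kb away.

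Where narrow peaks of the 2 lists overlapped, they were mostly the same site with almost the same borders. In all, 50 overlapping pairs included at least 1 narrow peak, and 45 of these were narrow in both lists. Of the 47 shared narrow hrp36 peaks, 45 had a narrow main partner (95.7%, 85.5 to 99.5%), and of the 47 shared narrow hrp48 peaks, 44 did (93.6%, 82.5 to 98.7%). In the 45 narrow pairs the median offset of a border was 36 bp, with quartiles of 12.3 and 86.8 bp, and 72 of 90 borders (80%) were offset by 100 bp or less. The widths of a pair differed by a median of 69 bp, and the overlap made up a median of 95.8% of the stretch covered by either peak. The hrp36 peak was the wider one in 21 pairs and the hrp48 peak in 24.

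The 5 narrow pairs with the smallest difference in width lay both near centromeres and far from them. The site on 3L at 24381099 to 24384434 for hrp36 (3336 bp) and 24381107 to 24384434 for hrp48 (3328 bp) had an identical end. On X the peaks at 22173038 to 22176991 (hrp36, 3954 bp) and 22173044 to 22176990 (hrp48, 3947 bp) differed by 7 bp in width. On 2R a mid-arm site was listed at 13685605 to 13686767 (hrp36, 1163 bp) and 13685601 to 13686754 (hrp48, 1154 bp). A further 2 pairs on 2R, whose hrp36 peaks began at 1266120 and 1604443, also differed by 7 bp in width.

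All 6 shared narrow hrp36 peaks under 1500 bp had a partner of nearly the same size. They lay on 2R at 6866851 to 6868010, 11114674 to 11115796 and 13685605 to 13686767, on 3L at 6327781 to 6328977, and at 3964339 to 3965817 and 11134239 to 11135357 of X. Their widths were 1160, 1123, 1163, 1197, 1479 and 1119 bp, and those of their hrp48 partners 1189, 1245, 1154, 1179, 1523 and 1053 bp. None of these sites was in the centromere-proximal 10% of its arm. Few peaks of this size were, with 8 of 78 hrp36 peaks under 1500 bp on the long arms (10.3%, 4.53 to 19.2%).

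A small number of pairs were drawn differently in the 2 lists. On 3L, 2 hrp36 peaks at 7370094 to 7372004 (1911 bp) and 7372017 to 7373943 (1927 bp), 12 bp apart, lay under 1 hrp48 peak at 7370143 to 7373909 (3767 bp). On 2R the hrp36 peak at 832391 to 834248 (1858 bp) lay inside an hrp48 peak at 831501 to 835482 (3982 bp), the largest width difference among narrow pairs at 2124 bp. Another hrp36 peak of 2R, at 1353169 to 1356514 (3346 bp), was 1576 bp wider than its hrp48 partner of 1770 bp. In 6 of the 45 narrow pairs the widths differed by more than 500 bp.

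In 5 pairs a narrow peak met a wider one. For 2 of them hrp36 was the narrow side, with 2166 bp on 2R (827295 to 829460) inside an hrp48 peak of 8640 bp, and with 1634 bp on 3L (22974845 to 22976478) against 4743 bp. For the other 3 hrp48 was the narrow side, with 2027 bp on 2L (21609614 to 21611640) against 6793 bp, 3421 bp on 2R (7537414 to 7540834) against 4521 bp, and 3967 bp on 3R (10957226 to 10961192) against 5160 bp. These pairs account for all sites that changed class between the lists.

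**Figure D3:**
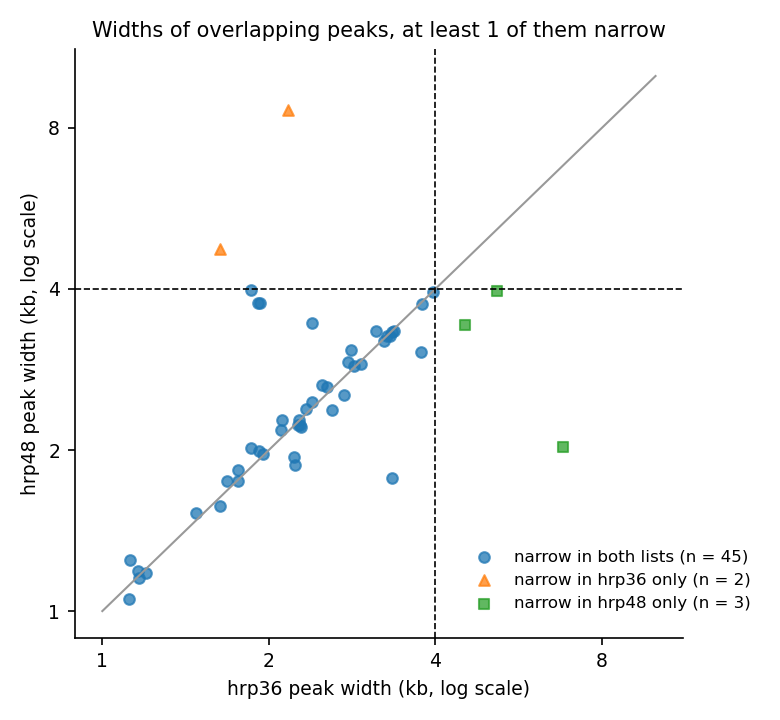
Width of the hrp36 peak (horizontal axis, kb, log scale) against that of the overlapping hrp48 peak (vertical axis, kb, log scale) for the 50 pairs with at least 1 narrow peak; circles are narrow in both lists, triangles in hrp36 only and squares in hrp48 only, with equal widths on the grey line and 4 kb on the dashed lines. Most of the 45 circles sit on or near the line, with a median width difference of 69 bp.

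The 8 narrow peaks found in the hrp48 list only were not small. Their widths ran from 2115 to 3950 bp with a median of 3438 bp. They lay on 2L at 7548035 to 7550560 (2526 bp), 9976540 to 9980387 (3848 bp) and 21540615 to 21543946 (3332 bp), and on 2R at 1290232 to 1292346 (2115 bp) and 9989683 to 9993608 (3926 bp). The other 3 were on 3L at 18477664 to 18480111 (2448 bp), on 3R at 15419676 to 15423625 (3950 bp) and on X at 10993097 to 10996640 (3544 bp). The nearest hrp36 peak was 2.11 kb away for the proximal 2R peak and 11.9 kb away for the proximal 2L peak. For the other 6 it was 22.7 to 455 kb away.

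Narrow hrp36-only peaks overlap no hrp48 peak by definition, and most of the 129 lay over 100 kb from one. The median gap to the nearest hrp48 peak of any width was 241 kb (95% interval 128 to 326 kb), with a range from 0.462 to 1168 kb. Of the 129, 5 lay within 1 kb of an hrp48 peak (3.88%, 1.27 to 8.81%), 8 within 10 kb and 47 within 100 kb (36.4%, 28.1 to 45.4%). Over all hrp36 arm peaks, overlapping ones included, these parts were 59.0%, 61.3% and 74.6%. For wider hrp36-only peaks they were 1, 6 and 13 of 19, with a median gap of 23.9 kb (8.08 to 114 kb). The gap that the number of hrp48 peaks alone would give was not computed. The 5 closest were on 2L at 21583273 to 21586604, 21664819 to 21668680 and 22473349 to 22474892, at 1302931 to 1304948 of 2R and at 1846600 to 1847883 of X. All but the X peak lay in the proximal 10% of their arm.

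In the hrp36 list, shared and list-only narrow peaks differed in the part that lay in the centromere-proximal 10% of an arm. Position was measured as the percentage of an arm's extent between its centromere-proximal end and the middle of the peak, on the 5 long arms. The proximal 10% of these arms held 41 of 174 narrow hrp36 peaks (23.6%, 17.5 to 30.6%), against 24.2% of all hrp36 peaks of the long arms. It held 24 of 54 narrow hrp48 peaks (44.4%, 30.9 to 58.6%), against 29.6% of all hrp48 peaks there. Wider peaks were proximal in 42 of 169 cases for hrp36 (24.9%, 18.5 to 32.1%) and 40 of 162 for hrp48 (24.7%, 18.3 to 32.1%). Peaks spread evenly along the arms would put 10% of their number there.

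About 1 in 2 shared narrow peaks was proximal, and a smaller share of the hrp36-only ones. Of the shared peaks, 23 of 46 hrp36 peaks (50%, 34.9 to 65.1%) and 22 of 46 hrp48 peaks (47.8%, 32.9 to 63.1%) were in the proximal 10%. These are largely the same sites seen in either list and are not independent of each other. Among hrp36-only narrow peaks it was 18 of 128 (14.1%, 8.55 to 21.3%), an interval that includes 10%. Shared wider hrp36 peaks stood at 35 of 150 (23.3%, 16.8 to 30.9%), an interval below that of shared narrow hrp36 peaks. Wider hrp36-only peaks stood at 7 of 19 (36.8%, 16.3 to 61.6%), so among wider peaks the list-only ones had the higher share, with overlapping intervals. Among the 8 narrow hrp48-only peaks, 2 were proximal (25%, 3.19 to 65.1%), an interval that overlapped that of shared hrp48 peaks. The distal 50% held 41.3% of shared (27.0 to 56.8%) and 36.7% of hrp36-only (28.4 to 45.7%) narrow hrp36 peaks, with overlapping intervals. The median position was 11.3% of the extent from the centromere for shared narrow hrp36 peaks (95% interval 5.78 to 56.1%) and 34.4% for hrp36-only ones (31.7 to 45.7%), with overlapping intervals. With each long arm left out in turn, the proximal share ran from 48.3 to 52.4% for shared and from 11 to 16.3% for hrp36-only narrow peaks. Narrow peaks numbered 41 for hrp36 and 24 for hrp48 in the proximal 10%, and 133 and 30 in the rest of the long arms. With mostly narrow partners, these numbers limit the shared part of narrow hrp36 peaks more in the rest. It was 23 of 133 there (17.3%, 11.3 to 24.8%) and 23 of 41 in the proximal 10% (56.1%, 39.7 to 71.5%). The contrast of shared with hrp36-only peaks thus largely restates where narrow hrp48 peaks lay.

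Split by width, proximal and other hrp36 peaks had separate intervals for the part shared in 1 of 3 narrow classes. From 1500 to under 2500 bp, 14 of 18 proximal hrp36 peaks were shared (77.8%, 52.4 to 93.6%), against 9 of 43 in the rest of the long arms (20.9%, 10.0 to 36.0%). The hrp48 list had 12 proximal peaks and 10 others in this class, so the contrast also depends on where hrp48 peaks lay. A difference beyond these numbers was not tested. From 2500 to under 4000 bp the values were 9 of 15 (60.0%, 32.3 to 83.7%) and 8 of 20 (40.0%, 19.1 to 63.9%), with overlapping intervals. Under 1500 bp 0 of 8 proximal hrp36 peaks were shared, for which the exact interval reaches 36.9%, against 6 of 70 in the rest (8.57%, 3.21 to 17.7%). In that narrowest class 8 of 78 hrp36 peaks were proximal (10.3%, 4.53 to 19.2%), against 18 of 61 (29.5%, 18.5 to 42.6%) and 15 of 35 (42.9%, 26.3 to 60.6%) in the next classes. The hrp48 counts by class were 0 of 5, 12 of 22 (54.5%, 32.2 to 75.6%) and 12 of 27 (44.4%, 25.5 to 64.7%). For hrp48 the proximal peaks were shared in 22 of 24 cases (91.7%, 73.0 to 99.0%) and the others in 24 of 30 (80%, 61.4 to 92.3%).

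By arm, shared narrow hrp36 peaks were proximal in 9 of 17 cases on 2R, 4 of 8 on 2L, 4 of 7 on 3L, 5 of 10 on X and 1 of 4 on 3R. For hrp36-only narrow peaks the counts were 4 of 23, 7 of 28, 2 of 30, 1 of 9 and 4 of 38 in the same order. The proximal share was thus higher among shared peaks on each of the 5 arms, though with few peaks on any of them. The next 10% of the arms held 1 of 54 narrow hrp48 peaks (1.85%, 0.0469 to 9.89%) and 12 of 174 narrow hrp36 peaks (6.90%, 3.61 to 11.7%). Counted from the centromere in steps of 10%, parts 3 to 10 held 3, 2, 2, 8, 4, 5, 3 and 2 narrow hrp48 peaks. Their intervals all overlapped that of part 2, so it was not set apart from them. Of all hrp48 peaks of the long arms, 64 of 216 lay in the proximal 10% and 86 in the proximal 20%. For hrp36 these were 83 and 114 of 343. The distal 50% of the arms held 66 of 174 narrow hrp36 peaks (37.9%, 30.7 to 45.6%) and 22 of 54 narrow hrp48 peaks (40.7%, 27.6 to 55.0%), near the 36.4% of all hrp36 and 37.5% of all hrp48 peaks of the long arms.

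**Figure D4:**
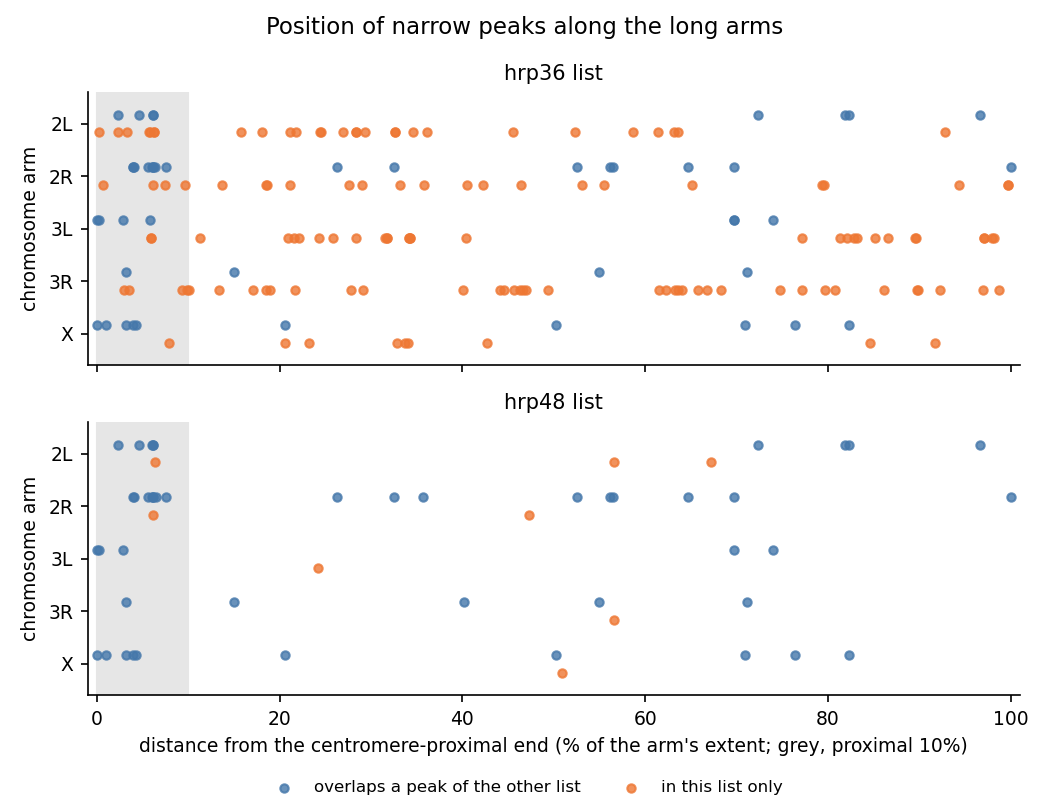
Position of each narrow peak on the 5 long arms (rows) as distance from the centromere-proximal end in % of the arm's extent (horizontal axis), for hrp36 above and hrp48 below; colours separate peaks shared with the other list from peaks in 1 list only, and the grey band is the proximal 10%. Shared peaks gather in the band (23 of 46 hrp36 peaks), while hrp36-only peaks are strewn along the arms, with 18 of 128 in the band.

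Most narrow peaks stood well away from wider peaks of their own list. The median gap to the nearest peak of 4000 bp or more was 248 kb for hrp36 (95% interval 157 to 326 kb) and 154 kb for hrp48 (77.1 to 362 kb). Gaps between wider peaks themselves had medians of 192 kb (140 to 253 kb) and 208 kb (151 to 284 kb), and these intervals overlapped those of the narrow peaks. Within 10 kb of a wider peak lay 19 of 176 narrow hrp36 peaks (10.8%, 6.63 to 16.3%), against 9.83% of all hrp36 arm peaks. For hrp48 it was 9 of 55 (16.4%, 7.77 to 28.8%), against 9.63% of all hrp48 arm peaks. More than 500 kb from any wider peak of the list were 50 narrow hrp36 peaks (28.4%, 21.9 to 35.7%) and 12 narrow hrp48 peaks (21.8%, 11.8 to 35.0%), near the 27.2% of all hrp36 and 26.6% of all hrp48 arm peaks.

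Narrow peaks beside a wider one were mainly proximal. Of the 19 narrow hrp36 peaks within 10 kb of a wider one, 14 lay in the proximal 10% (73.7%, 48.8 to 90.9%), and all 9 such hrp48 peaks did. Among the 14 are all 6 narrow hrp36 peaks of the 2L stretch from 21.5 to 21.8 Mb described below. The proximal share of wider peaks beside another wider one was not computed, so this is not shown to be particular to narrow peaks. Shared and hrp36-only narrow peaks had overlapping intervals for the gap, with medians of 140 kb (70.5 to 362 kb) and 272 kb (208 to 369 kb). The closest hrp36-only peaks were on 2L at 21698015 to 21700760 (2746 bp), 21664819 to 21668680 (3862 bp) and 21579273 to 21582516 (3244 bp), only 39, 43 and 48 bp from a wider hrp36 peak. Next came X at 1846600 to 1847883 (1284 bp, 873 bp away) and 3L at 16652251 to 16656145 (3895 bp, 1566 bp away). At the other end, the hrp36-only peak of 3L at 5575904 to 5577249 (1346 bp) was 1969 kb from the nearest wider hrp36 peak. The next farthest were on 3R at 20382030 to 20383606 (1658 kb), on 2R at 8930213 to 8931543 (1389 kb) and on 3R at 12128698 to 12131181 (1167 kb) and 25144716 to 25146674 (1138 kb).

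**Figure D5:**
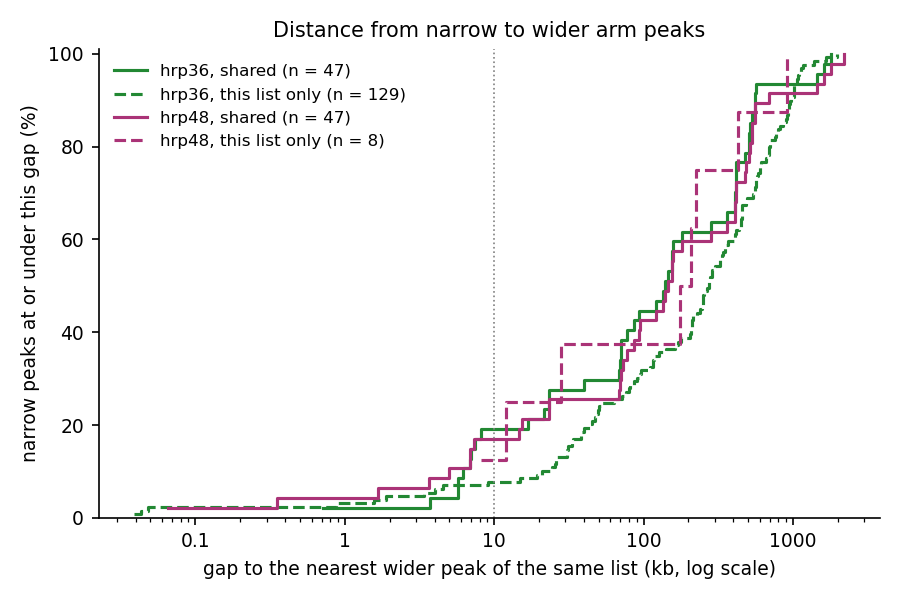
Cumulative share of narrow peaks (vertical axis, %) by gap to the nearest peak of 4 kb or more of the same list (horizontal axis, kb, log scale), for hrp36 in green and hrp48 in purple, with solid lines for shared and dashed lines for list-only peaks; the dotted line marks 10 kb. The curve of list-only hrp36 peaks runs to the right of the shared one over most of its length, and at 10 kb they stand at 7.75% and 19.1%.

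The 3 gaps under 50 bp fell in 1 stretch of 2L, from 21.5 to 21.8 Mb, the 300 kb of the arms with the most peaks over both lists. It held 19 hrp36 peaks, 6 of them narrow, and 12 hrp48 peaks, 4 of them narrow. Without it, 13 of 170 narrow hrp36 peaks (7.65%) and 7 of 51 narrow hrp48 peaks (13.7%) were within 10 kb of a wider one. The shared part of narrow hrp36 peaks was 45 of 170 (26.5%) without it. Proximal shares without it were 47.7% for shared and 11.3% for hrp36-only narrow hrp36 peaks.

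Narrow peaks seldom stood in groups. Another narrow peak of the list lay within 10 kb of 28 of 176 narrow hrp36 peaks (15.9%), near the 13.0% of all hrp36 arm peaks. For hrp48 it was 4 of 55 (7.27%, 2.02 to 17.6%), against 4.59% of all hrp48 arm peaks. Neighbours with gaps of at most 10 kb were joined, which left 160 stretches of narrow hrp36 peaks, 148 of them a single peak, and 53 of narrow hrp48 peaks, 51 of them a single peak. A run of 3 or more occurred in 2 places, both in the hrp36 list, which held 176 narrow peaks against 55. On 2L a run of 4 peaks spanned 18.0 kb (21579273 to 21597244), with 2 shared and 2 hrp36-only peaks of 2280 to 3332 bp, all within 8.17 kb of a wider hrp36 peak. On 3L a run of 4 spanned 25.2 kb (16029743 to 16054961), with peaks of 1553 to 3345 bp. All 4 of these were hrp36-only, and the nearest wider hrp36 peak was 553 to 576 kb away.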

How the data were processed

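ChIP-seq of S2 cells was analysed from 1 deposited peak list per antibody (hrp36 and hrp48, 2 immunoprecipitates each, with 2 inputs). The authors deposited sequence name, start, end and a running peak name in 4 columns. The tools were Bowtie2 2.2.2 and MACS 1.4.2, with build dm3, per the submitters' processing notes. Their roles and settings, any pooling of replicates and the control input are not given in the sources used here. Peak names run without gaps from 1 to 1020 and from 1 to 938. Starts were read as counted from 0 and printed from 1.

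Narrow means under 4000 bp; shared means an overlap of at least 1 bp. Gaps are edge to edge. Centromeric ends were the last base of 2L, 3L and X and the first of 2R and 3R. Arm extents end at the last peak of either list, and chromosome 4 was left out of positions. Python 3.11.15, pandas 2.3.3 and scipy 1.17.1 were used, and the overlap, gap and interval functions were tested on simulated data. Regions were named by rule: hrp48-only peaks, extreme pairs and gaps, runs of 3 or more, chromosome 4, peaks at the limit and class changes; the 6 shared peaks under 1500 bp and the 5 hrp36-only peaks within 1 kb of an hrp48 peak were added after their values were seen. Members, limits and rules were chosen with earlier results of these data known. The gene table was of Release 6 and served for symbols only.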

Additional observations from a re-analysis of the deposited data

How the results depend on the processing

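Of 102 recomputed values, 93 stayed within the 95% interval (for numbers of peaks, within 1.5 times), including all 35 with 1 long arm left out. With 1 arm left out most of the same peaks remain, so those values had little room to leave the interval. The 44 values with an arm left out or for the proximal shares of shared and list-only peaks were chosen after seeing the data. The width limit moved most of the rest. At 3000 bp there were 35 narrow hrp48 peaks with a median of 2115 bp, and 81.1% of shared narrow hrp36 peaks had a narrow partner. At 5000 bp there were 85 narrow hrp48 peaks with a median of 3337 bp, the hrp36 median was 1882 bp, and 35.1% of narrow hrp36 peaks were shared. A proximal part of 5% held 11.5% of narrow hrp36 and 24.1% of narrow hrp48 peaks, lower by construction than the part of 10%. A part of 20% held 30.5% and 46.3%, which counted as within although it is a different quantity. No paired analysis was possible because each antibody has 1 list and no result comes from a test, and for the same reason no replicate could be left out. With no reads or scores per peak, a missing peak may be a weak one that fell short of the caller's threshold.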

Other observations

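Few exact widths recurred among narrow peaks. None was held by 3 or more narrow peaks in either list, 10 widths were held by 2 narrow hrp36 peaks each and 1 by 2 narrow hrp48 peaks. Wider hrp36-only peaks more often had a narrow hrp36 peak within 10 kb (9 of 19, 47.4%, 24.4 to 71.1%) than wider shared hrp36 peaks did (8 of 151, 5.30%, 2.31 to 10.2%). Over all wider hrp36 peaks it was 17 of 170 (10%). For hrp48 the order was the other way, with 0 of 12 wider list-only peaks (exact interval up to 26.5%) and 6 of 151 wider shared ones (3.97%, 1.47 to 8.45%), and these intervals overlapped. The comparison was chosen after its values were seen and was not repeated without the dense stretch of 2L. Neighbouring peaks are not independent, so the intervals may be too narrow.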
